A study of Mus musculus with 6 samples.

Results

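The genes described here are 10 imprinted genes of the network that governs embryonic growth: H19, Meg3, Dlk1, Peg3, Plagl1, Mest, Ndn, Nnat, Grb10 and Sgce. They were taken by name, and each was read from probe sets annotated to that gene alone. Of the 10 genes, 9 had such a probe set, 36 probe sets in all, among 18193 genes on the array. H19 had none: the probe set that carries its name is also annotated to Mir675, a microRNA gene. Where a gene had several probe sets, the one with the highest mean over the 6 arrays leads and the others serve as a check.

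Imprinted genes are transcribed from the copy inherited from one parent, the other copy being silenced by DNA methylation set in the germ line. Several of them are highly expressed in embryonic mesenchyme and fall together after birth, and they act in opposite directions on fetal size, on insulin-like growth factor signalling and on the differentiation of muscle and fat precursors. Meg3, H19 and Grb10 are maternally expressed in fibroblasts, while Dlk1, Peg3, Plagl1, Mest, Ndn, Nnat and Sgce are paternally expressed. The array reads the sum of both copies and does not tell them apart.

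The samples were 6 clones of mouse embryonic fibroblasts (MEFs) that had immortalized spontaneously, with 1 array per clone. Clones E, H and J came from FHL2-/- mice, which lack the LIM-domain adaptor FHL2, and clones E, F and I from wild type (WT) mice. Every sample is a clonal line, so a value describes the cells of 1 clone, and the letter E in both genotypes is a name and not a pairing. The sources used here give no age, sex or treatment for the cultures. The labels call the arrays biological replicates without stating that each clone came from an embryo of its own, so p-values measure the spread between clones.

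Values are log2 intensities made by the authors with RMA. A difference is the knockout mean minus the wild type mean on that scale, given with its standard error (SE) from limma, fitted over all genes, and n = 3 clones per genotype. A gene is said to rise or fall where its Benjamini-Hochberg adjusted p lay under 0.05. Fhl2 itself read 6.01, 6.44 and 6.57 in the knockout clones and 9.88, 8.57 and 9.64 in the wild type clones, a difference of -3.02 (SE 0.35, limma adjusted p = 0.00400; exact two-sided permutation p = 0.1, the smallest that 20 assignments of the clones allow). The sources do not state if the Fhl2 probes match sequence removed by the deletion. Knockout clone H was unlike the other knockout clones, with correlations across genes of 0.964 and 0.968 with clones E and J against 0.991 between those clones; it also read Xist at 9.82 (4.69 to 5.11 elsewhere) and the Y-linked Eif2s3y at 2.92 (7.47 to 8.79 elsewhere). Array medians ran from 4.51 to 4.54 in knockout and from 4.44 to 4.46 in wild type clones. The 3' minus 5' reading of Gapdh ran from -0.119 to -0.045 and from -0.041 to 0.052, so both moved with genotype. That of Actb overlapped between genotypes, from 0.103 to 0.235 in knockout and from 0.0929 to 0.133 in wild type clones. With every array centred on its median, the same 5 genes passed as are called here; the part of the 3' to 5' reading in the results was not tested. Wild type clone E was deposited to 9 decimals, the remaining clones to 3.

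Promoters from RefSeq (assembly GRCm38.p6, 250 bases before to 50 bases after the start of transcription) were found for 8 of the 10 genes, as 12 starts. Those of Nnat, Mest, Plagl1 and Meg3 are printed because these genes had large differences and a window that holds TGCCGC, the hexamer that ZFP57, a zinc-finger protein that keeps germ-line methylation at imprinted loci, binds when it is methylated. Matches on either strand are in capitals, and a match on the reverse strand reads GCGGCA. The positions are chr2:157559828-157560127 (plus strand) for Nnat, chr6:30737800-30738099 (plus) for Mest, chr10:13090582-13090881 (plus) for Plagl1 and chr12:109540746-109541045 (plus) for Meg3.
Nnat: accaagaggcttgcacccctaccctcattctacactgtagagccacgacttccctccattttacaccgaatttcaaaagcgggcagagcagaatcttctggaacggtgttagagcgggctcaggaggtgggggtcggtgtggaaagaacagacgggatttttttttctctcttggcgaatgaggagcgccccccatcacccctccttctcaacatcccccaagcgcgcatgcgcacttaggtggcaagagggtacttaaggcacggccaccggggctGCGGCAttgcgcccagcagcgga
Mest: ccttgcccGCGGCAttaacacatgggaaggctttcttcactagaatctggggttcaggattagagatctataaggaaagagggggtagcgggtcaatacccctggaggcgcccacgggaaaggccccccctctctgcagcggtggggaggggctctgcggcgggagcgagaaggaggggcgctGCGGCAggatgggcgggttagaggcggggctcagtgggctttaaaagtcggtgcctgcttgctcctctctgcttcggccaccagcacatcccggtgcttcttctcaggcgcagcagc
Plagl1: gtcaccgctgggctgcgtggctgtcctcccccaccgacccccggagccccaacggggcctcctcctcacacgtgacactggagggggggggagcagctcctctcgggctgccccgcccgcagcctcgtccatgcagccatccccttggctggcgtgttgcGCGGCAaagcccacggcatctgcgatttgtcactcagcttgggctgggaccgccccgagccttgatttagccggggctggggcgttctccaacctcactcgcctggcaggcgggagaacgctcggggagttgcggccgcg
Meg3: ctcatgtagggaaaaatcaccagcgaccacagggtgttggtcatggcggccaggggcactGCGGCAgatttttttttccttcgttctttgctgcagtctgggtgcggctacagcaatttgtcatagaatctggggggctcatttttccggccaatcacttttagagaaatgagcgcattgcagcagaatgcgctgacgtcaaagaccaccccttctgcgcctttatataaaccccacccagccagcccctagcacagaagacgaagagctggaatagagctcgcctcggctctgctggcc

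The Mest window holds 2 of these hexamers and the windows of Nnat, Plagl1 and Meg3 hold 1 each. In all, 6 of the 12 promoters hold it, 1 of the starts of Grb10 included, against 11.6% of 32851 mouse promoters of the same length; the starts of 1 gene can overlap, as 2 of the 3 starts of Mest do. The windows of Dlk1, Ndn and Peg3 hold none. The palindrome GGGGCCCC, a motif bound by PLAGL1, occurs in 1 of the 12, that of Peg3 (1.08% of all promoters). A core of the YY1 site, GCCATNTT, occurs in 0 of the 12 (6.05% of all promoters). CpG dinucleotides numbered 17 in the printed windows of Nnat and Mest, 26 in that of Plagl1 and 13 in that of Meg3, where the median of all promoters is 7. These are matches of letters and do not show binding, and methylation was not measured.

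Most of the measured imprinted genes read higher in knockout clones, and one fell far. Of the 9 genes, 4 rose (Dlk1, Plagl1, Mest and Sgce), 1 fell (Nnat) and 4 did not pass (Meg3, Grb10, Peg3 and Ndn). Over all genes 19% passed, 9.04% higher and 10% lower. Knockout and wild type readings were fully separate in 7 of the 9 genes, which holds for 38.9% of all genes. The median difference was 2.25 over the 9 genes, against 0.04 over all genes. All 5 genes that passed are paternally expressed, as are 7 of the 9 measured. Those 7 genes had a median difference of 2.25. The pair of maternally expressed genes had 1.78, the midpoint of 3.68 for Meg3 and -0.11 for Grb10. The difference between maternally and paternally expressed genes was not tested. The counts depended on the clones: 7 of the 9 genes passed when knockout clone H was dropped, 2 when knockout clone E was, 1 when knockout clone J was, 2 when wild type clone E was, and 4 when either wild type clone F or I was, while the number of all genes that passed ran from 1661 to 4750 in these fits.

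**Figure D1:**
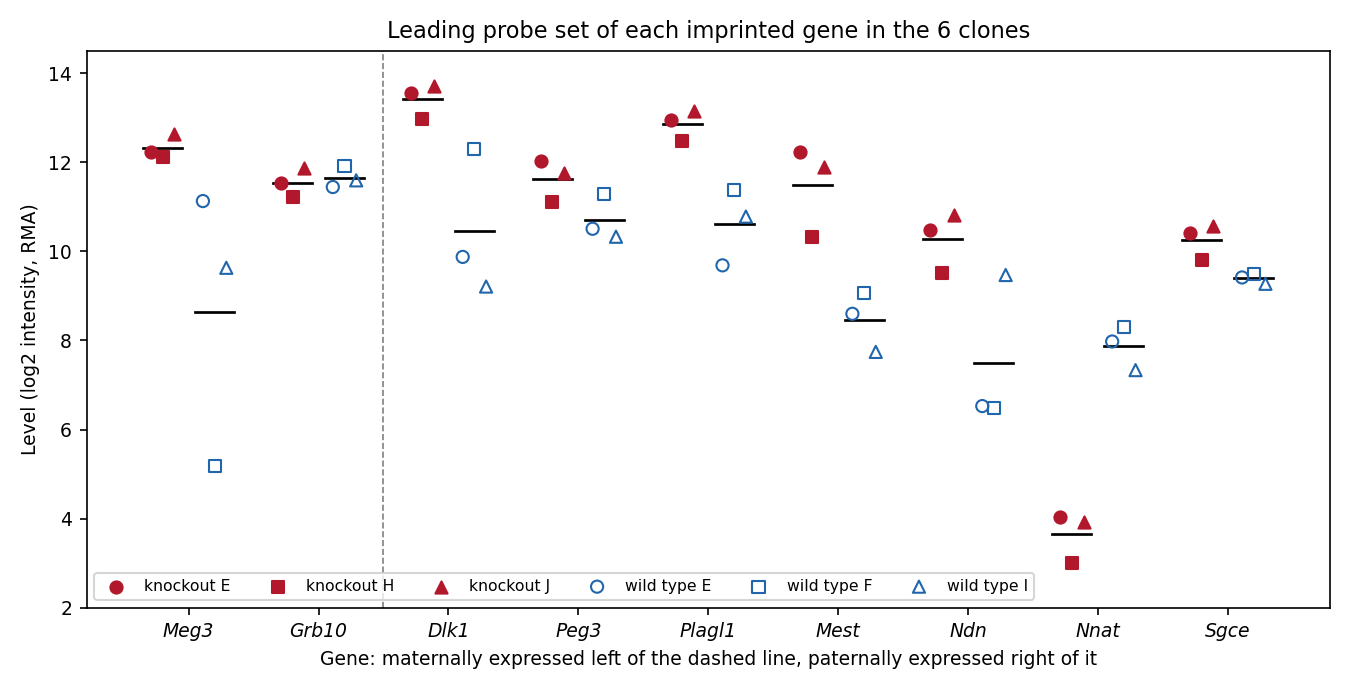
Level of the leading probe set of each gene (log2 intensity, RMA) in each clone, with knockout clones filled and red, wild type clones open and blue, and bars at the group means; n = 3 clones per genotype. Nnat is the gene whose knockout readings (3.01 to 4.03) all lie below its wild type readings (7.33 to 8.30), and wild type clone F lies far below the other clones for Meg3 (5.17).

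Meg3 is a long noncoding RNA made from the maternal chromosome 12. Its leading probe set (NCBI gene ID 17263) read 12.22 in knockout clone E, 12.12 in H and 12.63 in J, against 11.13 in wild type clone E, 5.17 in F and 9.63 in I; this order of clones holds for all values that follow. All knockout clones were high and close together, whereas the wild type clones spread over 5.95 with clone F far below the others. The group means were 12.32 ± 0.273 and 8.64 ± 3.10 (SD, n = 3), and the difference of 3.68 (SE 1.42) did not pass (limma adjusted p = 0.125). Without wild type clone F it was 1.94 (limma adjusted p = 0.0586), and it did not pass in any of the 14 alternative settings. Each of the 11 Meg3 probe sets read lowest of the wild type clones in clone F and higher on average in knockout clones, by 0.79 to 3.72. In a fit over all 45037 probe sets, of which 13.9% passed, 5 of the 11 passed (limma adjusted p = 0.00548 to 0.0223); these had mean levels of 5.69 to 7.12 and wild type values spread over 0.121 to 2.32. The 6 that did not pass had wild type values spread over 0.734 to 7.08.

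Grb10 encodes an adaptor that binds the insulin and insulin-like growth factor receptors and restrains their signalling. It read 11.52, 11.22 and 11.87 in knockout clones (NCBI gene ID 14783) and 11.44, 11.90 and 11.59 in wild type clones. The genotypes overlapped, with a difference of -0.11 (SE 0.20, limma adjusted p = 0.755). The other Grb10 probe sets gave 0.16 and 0.17, so that the sign was not the same across probe sets, and the mean of all 3 gave 0.07. Of the 9 measured genes, Grb10 is the one with both a small difference and little spread within either genotype (0.65 in knockout and 0.463 in wild type clones). Its paralogue Grb14, an adaptor of the same family that is not imprinted, read 4.73, 7.65 and 4.86 in knockout against 9.50, 9.10 and 8.91 in wild type clones. Grb14 fell by 3.43 (SE 0.77; 0.0268 was its limma adjusted p), a call that held when knockout clone H was left out and in none of the 5 fits that left out another clone (adjusted p = 0.0709 to 0.1). The difference of Grb14 was -4.38 without knockout clone H and -1.74 with its probe sets averaged.

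The probe set shared by H19 and Mir675 was high in every knockout clone, at 12.74, 13.01 and 12.78, and lower in the wild type clones, at 7.26, 9.34 and 8.67. H19 is a maternally expressed long noncoding RNA and the host of Mir675, and the annotation gives this probe set both names. Igf2, the paternally expressed growth factor gene beside H19, rose by 4.81 (SE 0.22, limma adjusted p = 3.76e-04), from 8.09, 8.90 and 8.68 in wild type to 13.41, 13.17 and 13.50 in knockout clones. These readings lay farther apart than the clones of either genotype did.

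Dlk1 encodes a transmembrane protein with EGF repeats, related to Notch ligands, that holds back the differentiation of fat cell precursors. Its leading probe set (NCBI gene ID 13386) read 13.55, 12.97 and 13.70 in knockout clones and 9.87, 12.30 and 9.21 in wild type clones. The lowest knockout clone lay 0.675 above the highest wild type clone, which was clone F. Dlk1 rose by 2.95 (SE 0.76, limma adjusted p = 0.0421), or 7.72-fold, from 10.46 ± 1.62 to 13.41 ± 0.386 (SD, n = 3). The second probe set gave 3.35 (SE 0.44, limma adjusted p = 0.00594). The call of the leading probe set did not hold when knockout clone E or J or wild type clone E or I was left out (adjusted p = 0.102 to 0.142), nor with a trended and robust prior (adjusted p = 0.0548). The difference was 3.87 once wild type clone F was dropped and 2.32 once clone I was.

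Dlk1 and Meg3 lie side by side on chromosome 12 and are expressed from opposite parental copies, and 2 further maternal noncoding RNAs follow: Rian, a host of small nucleolar RNAs, and Mirg, a host of microRNAs. All 4 read higher in every knockout clone than in any wild type clone. Over all genes, 38.9% had fully separate genotypes, in either direction. Rian read 11.08, 10.99 and 11.16 in knockout and 8.42, 3.90 and 8.52 in wild type clones, a difference of 4.13 (SE 1.20) that did not pass (limma adjusted p = 0.0593) but did so once wild type clone F was dropped (2.61, adjusted p = 0.00208), with array weights (0.0417), with probe sets averaged (3.11, 0.0468) and among genes at or above the median level (0.0390). Mirg read 8.63, 9.20 and 9.28 in knockout and 7.13, 4.47 and 5.90 in wild type clones, and rose by 3.20 (SE 0.63, limma adjusted p = 0.0184); the call did not hold without knockout clone J (0.0673) or wild type clone I (0.0573), and the difference was 3.85 with wild type clone E dropped and 2.52 with clone F dropped. Readings of wild type clone F were low for the maternally expressed genes of the block but high for Dlk1. Meg3 lay 5.95 and 4.46 below wild type clones E and I there, Rian 4.52 and 4.63 below, and Mirg 2.66 and 1.43 below, while Dlk1 lay 2.42 and 3.09 above them. The second Dlk1 probe set read 4.57 in clone F, against 3.31 and 3.53 in wild type clones E and I. Its knockout clones read 6.39 or higher. The pattern of clone F is a reading of 1 clone, without a replicate.

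**Figure D2:**
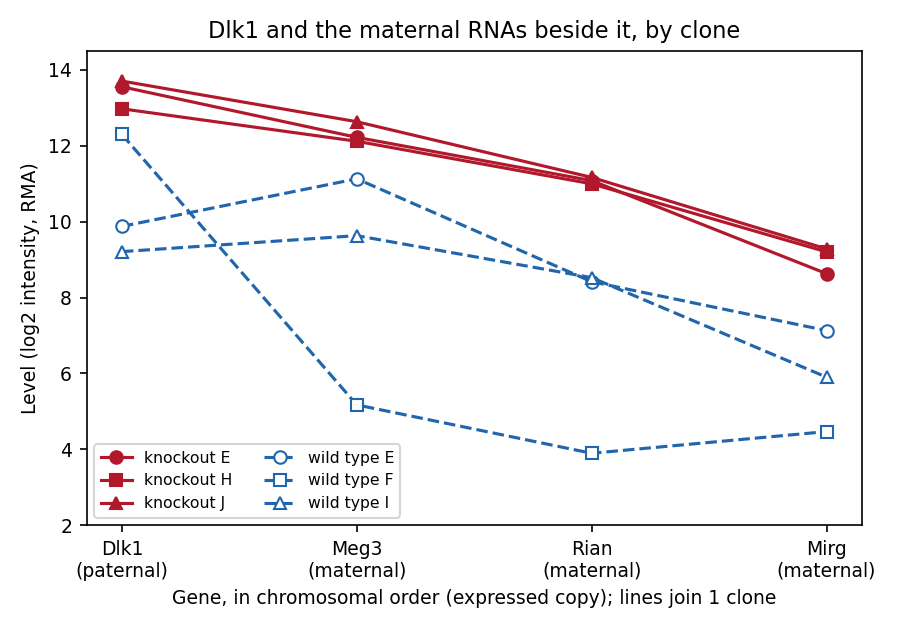
Level (log2 intensity, RMA) of Dlk1 and of the maternally expressed Meg3, Rian and Mirg in each clone, with lines joining the values of 1 clone; knockout clones are filled with solid lines and wild type clones open with dashed lines. Wild type clone F starts highest of the wild type clones for Dlk1 (12.30, leading probe set). It then lies lowest for Meg3 (5.17), Rian (3.90) and Mirg (4.47).

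Plagl1, also called Zac1, encodes a zinc-finger transcription factor that regulates other genes of the imprinted network. It read 12.96, 12.48 and 13.15 in knockout clones (NCBI gene ID 22634) and 9.68, 11.37 and 10.78 in wild type clones. The groups lay 1.11 apart at their nearest clones. Plagl1 rose by 2.25 (SE 0.43, limma adjusted p = 0.0163), or 4.76-fold, and its 2 other probe sets gave 3.69 and 3.09, both past the threshold. The call of the leading probe set did not hold without knockout clone E (adjusted p = 0.0535) or knockout clone J (0.0625). The related genes Plag1 and Plagl2, which are not imprinted, differed by -0.22 (SE 0.22) and -0.23 (SE 0.12) and did not pass.

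Peg3 encodes a large zinc-finger protein that binds DNA. It read 12.03, 11.12 and 11.75 in knockout clones (NCBI gene ID 18616) and 10.51, 11.29 and 10.33 in wild type clones. Knockout clone H lay below wild type clone F, so the genotypes overlapped. The difference was 0.93 (SE 0.33) and did not pass (limma adjusted p = 0.101); it passed without knockout clone H (1.18, adjusted p = 0.0279) and with array weights (1.08, adjusted p = 0.0338). The 2 other probe sets of comparable level gave 0.65 and 0.73, and 2 more were dim, with mean levels of 2.45 and 2.70.

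Mest, an endoplasmic reticulum protein of the hydrolase fold family that is abundant in embryonic mesoderm, had 1 probe set (NCBI gene ID 17294). It read 12.24, 10.31 and 11.89 in knockout clones and 8.60, 9.06 and 7.74 in wild type clones. Clone H was the lowest knockout clone and still lay 1.25 above every wild type clone. Mest rose by 3.01 (SE 0.56, limma adjusted p = 0.0155), or 8.07-fold, from 8.47 ± 0.668 to 11.48 ± 1.03 (SD, n = 3). The call did not hold once knockout clone J was dropped (adjusted p = 0.0591), nor without wild type clone E (0.0595).

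Ndn encodes necdin, a protein of the MAGE family that binds E2F1 and restrains cell growth. Its leading probe set (NCBI gene ID 17984) read 10.48, 9.52 and 10.82 in knockout clones and 6.53, 6.49 and 9.47 in wild type clones. Wild type clone I lay 0.047 below knockout clone H and lay 2.94 and 2.98 above wild type clones E and F. The difference of 2.78 (SE 0.84) did not pass (limma adjusted p = 0.0660); it passed without wild type clone I (3.77, adjusted p = 0.0102), without knockout clone H (3.16, adjusted p = 0.0437), with array weights (3.01, adjusted p = 0.0339) and among genes at or above the median level (2.78, adjusted p = 0.0436). The 5 probe sets that were not near the lower end gave 2.78 to 4.22, and the other 3 had mean levels of 2.81 to 3.34. Nsmce3, a MAGE gene that is not imprinted and encodes a subunit of the SMC5/6 complex, rose by 0.86 (SE 0.13, limma adjusted p = 0.00833), while Maged1 differed by 0.22 (SE 0.18) and did not pass.

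Nnat encodes neuronatin, a small proteolipid of the endoplasmic reticulum that is abundant in the developing nervous system. Its single probe set (NCBI gene ID 18111) read 4.03, 3.01 and 3.92 in knockout clones and 7.98, 8.30 and 7.33 in wild type clones. The groups lay 3.30 apart at their nearest clones, in the direction opposite to that of the other genes that passed. Nnat fell by 4.22 (SE 0.35, limma adjusted p = 0.00172), from 7.87 ± 0.494 to 3.65 ± 0.563 (SD, n = 3), and passed in each of the 6 fits that left out 1 clone (adjusted p = 4.22e-04 to 0.0139) and in the 6 other settings that kept its probe set. The knockout mean lay below 3.76, the 25th percentile of the mean levels of all genes, so the size of the fall is not exact. Nnat lies within the span of Blcap, whose readings went the other way: 8.90, 9.26 and 9.12 in knockout against 8.09, 8.21 and 8.13 in wild type clones. Blcap rose by 0.95 (SE 0.12, limma adjusted p = 0.00514) and passed in all 6 fits that left out 1 clone.

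Sgce encodes epsilon-sarcoglycan, a membrane protein of the dystrophin-associated complex. Its leading probe set (NCBI gene ID 20392) read 10.41, 9.79 and 10.57 in knockout clones and 9.41, 9.48 and 9.27 in wild type clones. The groups were 0.31 apart and the wild type clones lay within 0.214 of each other. Sgce rose by 0.87 (SE 0.21, limma adjusted p = 0.0344), or 1.83-fold. The call held without knockout clone H (adjusted p = 0.00178) and in none of the 5 fits that left out another clone (adjusted p = 0.0830 to 0.105). The second probe set, at a mean level of 3.30, gave 0.06, and the mean of both gave 0.47 (adjusted p = 0.0864). Other components of the complex that are not imprinted, Sgca, Sgcb, Sgcd, Sspn, Dag1, Utrn and Dmd, did not pass, with differences from -0.63 for Dmd to 0.45 for Dag1.

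**Figure D3:**
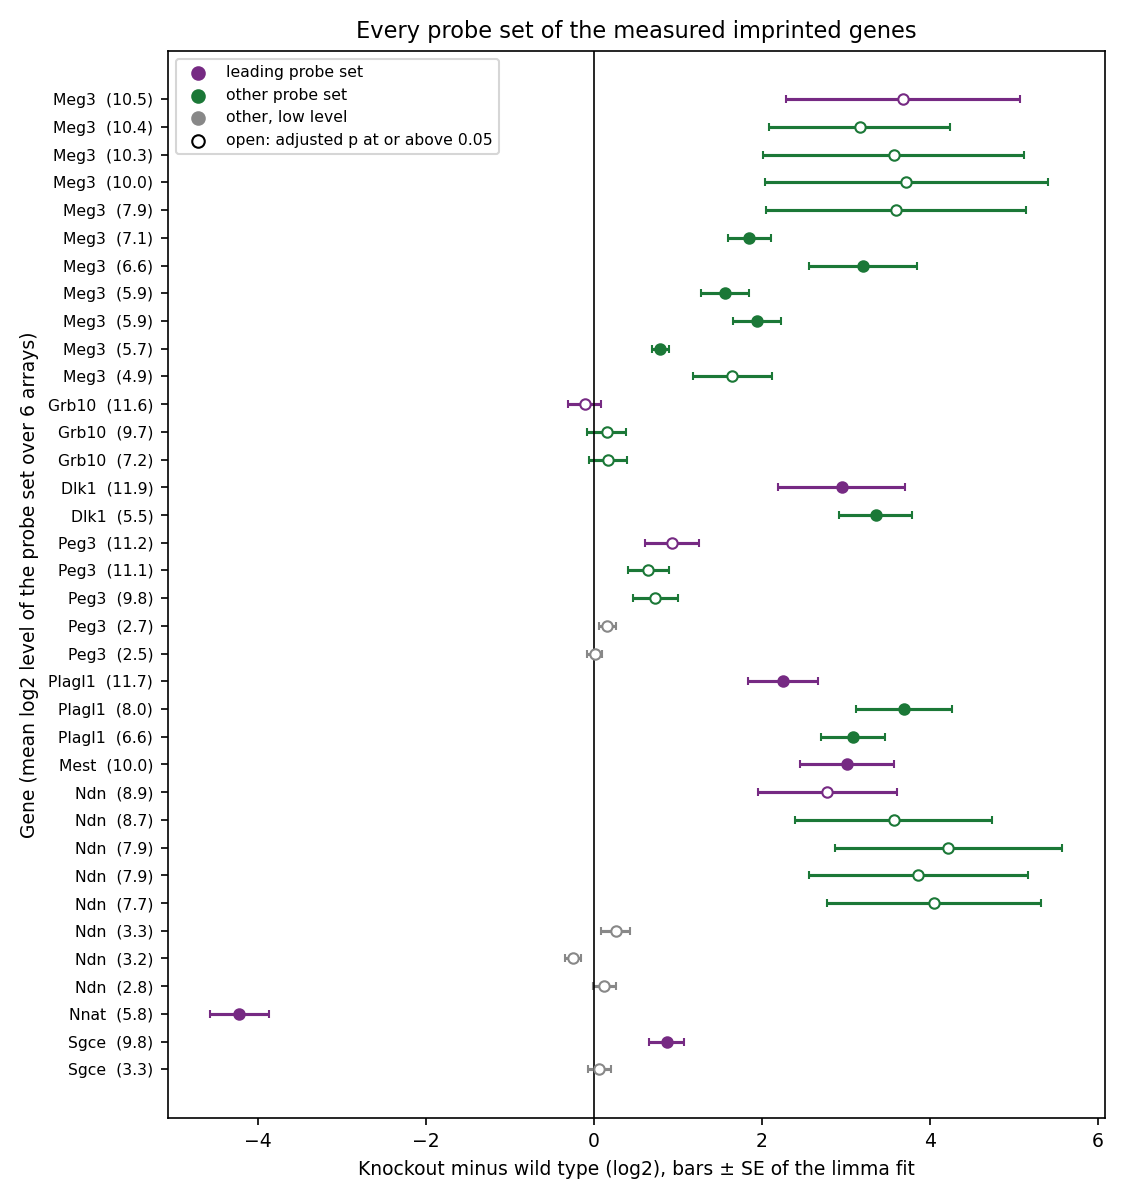
Knockout minus wild type difference (log2) of each of the 36 probe sets, with bars of ± 1 SE of the limma fit over all probe sets and the mean level of the probe set in brackets; filled points passed and grey points have a mean level under the 25th percentile of genes (3.76). The 11 Meg3 probe sets all lie above 0 and 5 of them passed, and the 3 Grb10 probe sets lie on both sides of 0.

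The wild type clones differed from each other more in these genes than in the array at large. The range over wild type clones exceeded 1 on the log2 scale in 5 of the 9 genes (Meg3, Dlk1, Plagl1, Mest and Ndn), against 3.45% of all genes, and its median was 1.32 against 0.285. Over knockout clones it exceeded 1 in 3 of the 9 (Mest, Ndn and Nnat), against 9.47% of all genes, with medians of 0.775 and 0.315. By leading probe sets, wild type clone F read highest of its genotype in 7 of the 9 genes and lowest for Meg3 and Ndn. Over all genes it read highest in 37.7%. Knockout clone H read lowest of its genotype in the leading probe sets of all 9 genes, against 42.0% of all genes. These include Nnat, where clone H lay farthest from wild type. Other Meg3 probe sets were divided on clone H, which was lowest in some and highest in others. The Meg3 probe set of mean level 6.61 read 8.85 in clone H, against 7.35 in E and 8.43 in J. These shares describe the clones, were chosen after the values were seen, and carry no test.

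Of the 48 distinct genes among the 3 measured neighbours on each side, 3 rose (Mirg, Blcap and Cpa1) and 1 fell (Fignl1), against 19% of all genes past the threshold; 20 had genotypes without overlap, near the 38.9% of all genes. Cpa1, a pancreatic carboxypeptidase gene near Mest, rose by 0.46 (SE 0.11, limma adjusted p = 0.0299), with readings of 4.14 to 4.77 in all clones. Fignl1, an ATPase gene of homologous recombination near Grb10, fell by 0.91 (SE 0.20, limma adjusted p = 0.0257). The call of Cpa1 held without knockout clone H and in no other fit that left out a clone (adjusted p = 0.0693 to 0.102), and that of Fignl1 did not hold without knockout clone J or without wild type clone E or F (0.0546 to 0.0785). The 36 neighbours outside the lists of imprinted genes differed by -0.91 to 0.95, so none of them differed by 2-fold. Of the 12 neighbours in those lists, which do not hold Blcap, Mirg was the one that passed. Copg2, beside Mest, differed by 0.42 (SE 0.13, limma adjusted p = 0.0756) and Klf14 by 0.07, a value whose sign turned with rescaling of the arrays. Beside Sgce, Peg10 read 3.65 to 6.03 over all clones and differed by -0.16 (SE 0.66), and Ppp1r9a differed by 1.54 (SE 0.56, limma adjusted p = 0.109), which passed without knockout clone H (2.20, adjusted p = 0.00176). Beside Peg3, Zim1 differed by 0.82 (SE 0.25, limma adjusted p = 0.0681) and did pass once knockout clone H was dropped (1.11, adjusted p = 0.00177), while Usp29 and Zim3 differed by -0.43 and 0.24. Beside Ndn, Magel2, Mkrn3 and Peg12 had group means of 2.75 to 3.40 in both genotypes and none passed, though Mkrn3 passed without knockout clone H (0.63, adjusted p = 0.00922).

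**Figure D4:**
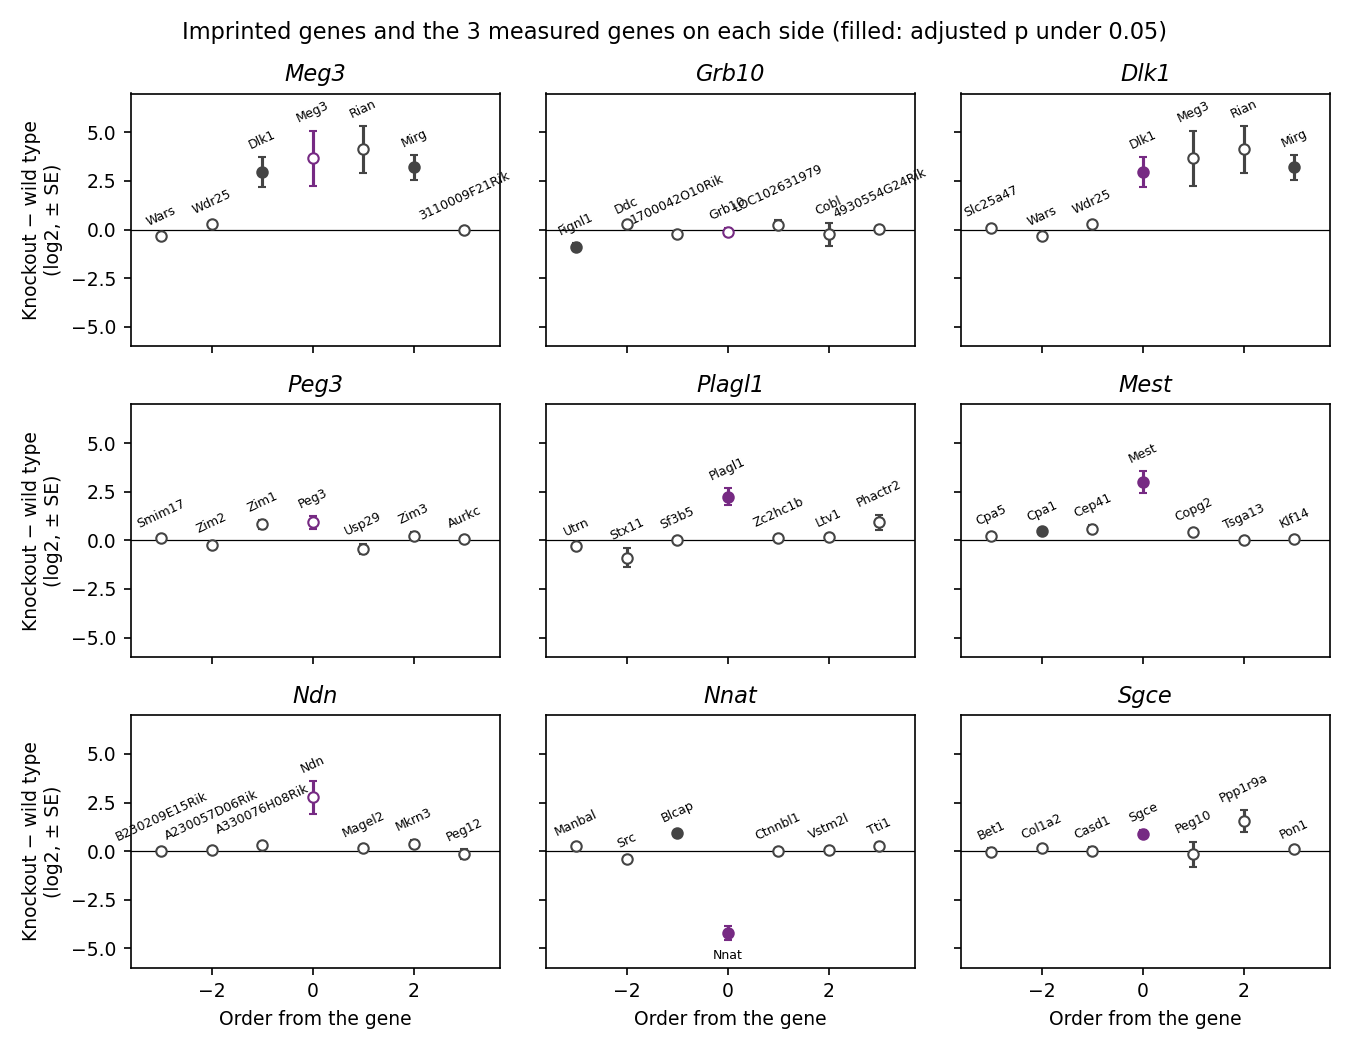
Knockout minus wild type difference (log2, bars ± 1 SE of the limma fit) of each gene (purple, order 0) and of the 3 measured genes on each side of it (dark grey), in RefSeq order along the chromosome; filled points passed. Apart from the block of Dlk1, Meg3, Rian and Mirg, shown around both Meg3 and Dlk1, the differences of Plagl1, Mest, Ndn and Nnat exceed those of their neighbours.

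Other imprinted genes passed at a share near the 19% of all genes. Of 18 further maternally expressed genes, 3 rose and 0 fell (median difference 0.17): Osbpl5, an oxysterol-binding protein gene, by 0.67 (SE 0.11, limma adjusted p = 0.0112), Mirg, and Ube3a, a ubiquitin ligase gene imprinted in neurons, by 0.48 (SE 0.10, limma adjusted p = 0.0194). Of 17 measured paternally expressed genes, 3 rose and 0 fell (median difference 0.17): Igf2, Zdbf2, a zinc-finger gene, by 1.42 (SE 0.22, limma adjusted p = 0.00845), and Inpp5f, a phosphoinositide phosphatase gene, by 0.53 (SE 0.14, limma adjusted p = 0.0483). Osbpl5, Igf2 and Zdbf2 passed in each of the 6 fits that left out 1 clone. Ube3a passed in 2 of those fits, without knockout clone H or wild type clone E, and Inpp5f in 1, without knockout clone H. With probe sets averaged neither passed (adjusted p = 0.0690 for Ube3a and 0.279 for Inpp5f), and Inpp5f also missed the threshold in 4 other settings (0.0506 to 0.0825). Cdkn1c, a maternally expressed inhibitor of cyclin-dependent kinases, differed by -0.88 (SE 0.75) and Igf2r by -0.13 (SE 0.25), and neither passed.

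Among 20 measured factors that keep or remove imprinting marks, 1 rose and 1 fell (median difference 0.03), where 9.04% of all genes were higher and 10% lower. Tet1, an enzyme that oxidizes methylcytosine, read 6.29, 5.95 and 5.87 in knockout and 4.69, 4.72 and 4.66 in wild type clones. It rose by 1.35 (SE 0.13, limma adjusted p = 0.00253) and passed in all 6 fits that left out 1 clone. Dnmt1, the maintenance DNA methyltransferase, read 8.46, 8.20 and 7.96 in knockout and 9.20, 8.86 and 8.98 in wild type clones. It fell by 0.81 (SE 0.16, limma adjusted p = 0.0197), a call that did not hold without knockout clone J or without wild type clone E or I (adjusted p = 0.0581 to 0.0720). Zfp57 and Trim28, which act at methylated imprinting control regions, differed by 0.23 (SE 0.14) and 0.11 (SE 0.12). Ctcf, the insulator protein of the H19 locus, differed by 0.25 (SE 0.12). None of the 3 passed. Of 15 measured paralogues and partners of the members, 2 rose (Nsmce3 and Blcap, the latter itself imprinted in brain) and 1 fell (Grb14), a share near the 19% of all genes.

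The brightest of 10 fibroblast markers, Col1a1, Col1a2, Col3a1, Vim and Fn1, read 12.46 or higher in every clone of both genotypes. Lum was the dimmest, at 5.75, 8.58 and 4.63 in wild type clones. Of the 10 markers, 2 rose and 2 fell, where 19% of all genes passed. The mean over 10 fibroblast markers ran from 11.98 to 12.18 in knockout and from 11.30 to 11.82 in wild type clones, with Lum and Pdgfra higher by 4.81 and 1.76 and Thy1 and Pdgfrb lower by 1.34 and 0.64 in knockout clones, each past the threshold. Of 33 measured markers of 7 other cell types, 2 rose and 2 fell, where 9.04% of all genes were higher and 10% lower. The mean of these 33 ran from 4.31 to 4.52 in knockout and from 4.26 to 4.45 in wild type clones. The endothelial Tek read 8.36, 4.68 and 8.91 in knockout against 2.54 to 3.31 in wild type clones, and Epcam differed by 0.43. The neural Tubb3 differed by -3.20. Of the fat cell markers Fabp4 differed by -1.93, while Pparg differed by 1.82 (limma adjusted p = 0.0582) and Lpl by 0.41, neither past the threshold. Of these 33 markers, 15 had mean levels under the 25th percentile of genes, Cdh1, Pecam1, Cdh5, Ptprc, Myod1, Adipoq, Pou5f1 and Nanog among them. The others lay above it, such as Lpl at 8.86, Epcam at 7.58 and Csf1r at 7.06. The part of these marker differences in the results was not tested, and fewer cells of a type cannot be told apart from less RNA per cell.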

How the data were processed

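RNA of 6 clones had been labelled with the one-cycle 3' protocol of Affymetrix, per the labels' protocols, and hybridised to 1 array each. The deposited values are log2 intensities made by the authors with RMA, per the submitters' processing notes; the sources used here name neither its version nor its settings. Of 45101 probe sets, 64 controls, 932 with several symbols and 9160 without a gene name were left out of the gene fit. The other 34945 (34741 found by gene ID in RefSeq GRCm38.p6) gave 18193 genes, each read by its brightest probe set on average. Knockout and wild type clones were compared in limma 3.58.1 (R 4.3.3, lmFit and eBayes, genotype alone) over all genes with Benjamini-Hochberg adjustment. A second fit took all 45037 probe sets that are not controls. Arrays have no read depth; 3 clones per genotype leave 4 residual degrees of freedom and a median SE of 0.141. The sources used here do not say whether wild type clone E was processed apart from the others.

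The members and lists were chosen with earlier results of these data known. Genes named were the members and Fhl2, up to 4 genes per list and direction that passed, list genes in the same clusters, and neighbours that passed; Plag1, Plagl2, Maged1, the sarcoglycan complex, Cdkn1c, Igf2r, Zfp57, Trim28, Ctcf and marker genes were named after their values were seen. Zrsr1, Rtl1, Dio3, Ctcfl and Plin1 were not analysed here. The alternatives were array weights, leaving out each clone, a level filter, a second quantile normalization, centring on array medians, and a trended, robust prior. Further ones averaged the probe sets of a gene, tested all probe sets, or left out those with the suffix _x_at, _s_at or _a_at. The pipeline was tested on simulated data with known differences. Figures used matplotlib 3.10.9 in Python 3.11.15.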

Additional observations from a re-analysis of the deposited data

Results flagged for a closer look

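The probe set annotated to both Mir675 and H19, lay outside the comparison of single genes and carried a signal above that of the wild type clones. Its difference was 4.42 (log2; SE 0.49, limma adjusted p = 0.0039 over all probe sets), with all 3 knockout clones above all 3 wild type clones. It was not counted among the members.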

How the results depend on the processing

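Of the 9 measured genes, 1 to 7 passed when each clone was left out in turn (0 to 6 rose and 1 fell in each fit). Of all genes, 1661 to 4750 did. Calls near the threshold thus changed with the clone left out. Each such fit also had 1 array fewer, and the part of this in the lost calls was not tested. The median difference ran from 0.98 to 2.35 for the maternally expressed pair and from 1.79 to 2.44 for the paternally expressed genes in these fits. Leaving out probe sets with the suffix _x_at, _s_at or _a_at removed Grb10 and Nnat, whose probe sets all end in _a_at. It also left Sgce to its second, dim probe set (0.06, mean level 3.30). Of the 7 genes that remained, 3 passed and 0 fell, with medians of 3.72 and 3.05. Among genes at or above the median level, which leaves out Nnat, 0 fell. With array weights 4926 genes passed, and so did 7 members. Signs turned in 4 of the genes recomputed, none of them past the threshold. Grb10 gave 0.0712 with probe sets averaged, 0.00592 with array weights, and -0.28 to 0.0491 without single clones. Klf14 gave -0.00853 after quantile normalization, -0.00983 after median centring and -0.0496 to 0.17 without single clones. Peg10 gave 0.13 with array weights and -0.79 to 0.40, and Peg12 -0.349 to 0.0629, without single clones. Of the further maternally expressed genes 8 passed with array weights and 1 to 6 without single clones, of the paternally expressed up to 5 without knockout clone H, and of the imprint maintenance factors 1 to 4. The causes were not tested. No paired analysis was possible because the genotypes share only the letter E. The number of arrays, not read depth, limits precision, and differences of readings near the lower end of the scale are inexact.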
